A study of Mus musculus with 18 samples.

Results

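Sugct, Stx8, Fbxl17, Snd1, Atrnl1, Babam2, Ptprg, Sil1 and Dtnb are 9 mouse genes that each span more than 200 kb and whose transcript levels were lower in liver after an antisense oligonucleotide against ACAT2. They were chosen by that difference and by their span, out of 17097 genes with an array value, and they are represented by 17 of 45037 probe sets. The difference between the antisense groups is therefore given as a description, without a test, while the other comparison of the study did not enter the choice and was tested.

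The liver RNA came from female mice aged 6 to 8 weeks, in a study of transintestinal cholesterol excretion, a route by which cholesterol leaves the body without passing through bile. In the acute model, C57BL/6N mice received an antisense oligonucleotide (ASO) directed at ACAT2, an enzyme that esterifies cholesterol (n = 4), or a control ASO without a target (n = 4). In the chronic model, C57BL/6 mice carried an NPC1L1 transgene in the liver (n = 5), and were set against wild type mice (n = 5). NPC1L1 is a cholesterol uptake protein. The labels do not give the dose or duration of the ASO, the promoter or species of the transgene, or whether the samples of a group came from separate animals, so the p-values rest on the spread between samples that may in part be technical replicates. Both ASO groups received an oligonucleotide, and no untreated C57BL/6N mice were among the samples. The level of the ASO's own target was not analysed here.

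Most of a long mammalian gene is intron. RNA polymerase has to copy the whole span before a full-length messenger RNA can be spliced together, whereas the array reads only short stretches of the messenger, mainly near its 3′ end. The 9 proteins have unlike tasks. Sugct is a mitochondrial transferase of glutarate breakdown, Stx8 and Sil1 work in membrane fusion and in protein folding along the secretory and endosomal route, and Fbxl17 and Babam2 belong to ubiquitin complexes. Snd1 binds RNA, and Atrnl1, Ptprg and Dtnb act at the cell membrane.

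Spans, in the RefSeq gene table of GRCm38.p6, were between 213.12 kb (Dtnb) and 837.32 kb (Sugct), with a median of 454.83 kb. The median of all measured genes with a span was 20.242 kb. Each lies on a chromosome of its own: Fbxl17 is on chromosome 17, Sugct on 13, Stx8 on 11, Snd1 on 6, Atrnl1 on 19, Babam2 on 5, Ptprg on 14, Sil1 on 18 and Dtnb on 12.

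The stretch just upstream of the transcription start is shown for the 4 genes with the largest differences, because it was the same kind of region in every gene and could be compared by sequence. Each is 250 bases long, is taken from RefSeq (GRCm38.p6) and reads 5′ to 3′ along the gene's strand. Capitals mark every match, on either strand, to any of 3 motifs. The GC box has the letters GGGCGG. The motif CCAAT is a box named for its own letters, and CCGGAAG is the motif of an ETS site. Sugct is at chr13:17694766-17695015 on the minus strand, Stx8 at chr11:67966208-67966457 on the plus strand, Fbxl17 at chr17:63500581-63500830 on the minus strand and Snd1 at chr6:28480098-28480347 on the plus strand.
Sugct: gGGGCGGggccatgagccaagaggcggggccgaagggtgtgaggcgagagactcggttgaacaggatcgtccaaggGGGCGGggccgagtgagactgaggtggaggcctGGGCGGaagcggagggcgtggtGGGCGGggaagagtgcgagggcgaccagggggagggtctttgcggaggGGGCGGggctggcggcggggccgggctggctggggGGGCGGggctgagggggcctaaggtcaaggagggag
Stx8: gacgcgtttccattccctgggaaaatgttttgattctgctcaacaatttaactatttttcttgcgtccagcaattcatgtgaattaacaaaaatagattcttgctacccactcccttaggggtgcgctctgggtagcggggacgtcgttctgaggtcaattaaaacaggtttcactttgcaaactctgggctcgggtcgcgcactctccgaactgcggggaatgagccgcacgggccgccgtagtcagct
Fbxl17: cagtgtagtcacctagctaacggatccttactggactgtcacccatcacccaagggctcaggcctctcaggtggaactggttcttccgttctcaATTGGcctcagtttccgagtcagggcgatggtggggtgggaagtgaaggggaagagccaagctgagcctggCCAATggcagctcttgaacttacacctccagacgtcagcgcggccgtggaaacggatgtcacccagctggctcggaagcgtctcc
Snd1: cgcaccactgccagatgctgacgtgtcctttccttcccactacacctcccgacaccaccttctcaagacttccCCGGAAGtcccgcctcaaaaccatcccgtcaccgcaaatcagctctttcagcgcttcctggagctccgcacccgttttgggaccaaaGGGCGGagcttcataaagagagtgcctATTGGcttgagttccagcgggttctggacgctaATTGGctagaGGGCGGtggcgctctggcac

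The 4 upstream regions had no element in common among the motifs searched. Sugct held GC boxes alone, Fbxl17 CCAAT boxes alone, Snd1 all 3 kinds and Stx8 none. Among 8 of the genes with a RefSeq window, 5 held GGGCGG, against 49.9% of the windows of 13605 measured genes. CCAAT was found in 2 of the 8, against 35.9% of all windows, and CCGGAAG in 2 of the 8 (Snd1 and Babam2), against 10.5%. The letters TATAAA of a TATA box were found in 0 of the 8, against 9.3% of all windows. The letters CACGTG of an E-box were also found in 0 of the 8, against 7.6%. Matches on both strands counted, and matches of different motifs could overlap. The GC content of the 8 windows had a median of 71.2% and ranged between 50% and 76.4%, against a median of 57.6% over all windows.

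All 17 probe sets of the 9 genes had a lower mean after ACAT2 ASO than after control ASO, with a median log2 difference of -0.74. The median over all 45037 probe sets was 0.0057. Under limma's fit over all probe sets 10 of the 17 passed an adjusted p under 0.05 in the direction of lower, against 0.284% of all probe sets, and this count repeats what the choice of the genes used. The groups did not overlap for 15 of the 17, against 4.15% of all probe sets, which is the same kind of restatement. A leading probe set, the brightest of a gene over the 18 arrays, was taken for each gene. The leading probe sets of the 9 genes had a median difference of -0.90, and their groups were apart for all 9, against 4.67% of all genes.

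Sugct, the succinyl-CoA:glutarate-CoA transferase that hands glutarate on to the breakdown route of lysine, had the widest difference of the 9. Its log2 values were 4.84, 5.18, 5.33 and 5.07 in the ACAT2 ASO samples, against 6.96, 6.55, 6.70 and 5.83 in the control ASO samples. The groups did not overlap, but control ASO 4 lay well below the other controls. The mean was 5.11 ± 0.21 in the ACAT2 ASO group, against 6.51 ± 0.49 in the control group (SD, n = 4 each). The difference was -1.40 ± 0.20 (limma's SE), which leaves 37.8% of the control level. Leaving out single arrays moved it between -1.63 and -1.25.

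Stx8, a syntaxin of late endosomes that takes part in membrane fusion, has 3 probe sets, and the brighter ones gave like differences. The leading one read 7.04, 7.13, 6.74 and 6.76 after ACAT2 ASO, against 8.01, 8.00, 7.79 and 8.15 after control ASO. Its difference was -1.07 ± 0.08, or 47.6% of the control level. Another probe set of Stx8 read 5.87, 5.97, 5.70 and 5.78 after ACAT2 ASO, against 6.65, 6.68, 6.64 and 6.81 after control ASO, a difference of -0.86. The ranges lay far apart for both, while the faintest probe set differed by only -0.14 at values of 3.31 to 3.67.

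Sil1, the nucleotide exchange factor of the endoplasmic reticulum chaperone Hspa5, has a single probe set. It read 7.95, 7.95, 7.79 and 7.62 after ACAT2 ASO, against 8.60, 8.73, 8.59 and 8.36 after control ASO. The lowest control sample was above the highest ACAT2 ASO sample. The difference was -0.74 ± 0.09, or 59.9% of the control level.

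Fbxl17 is an F-box protein that picks substrates for an SCF ubiquitin ligase. Its leading probe set read 5.90, 6.27, 5.71 and 5.99 after ACAT2 ASO, against 7.25, 6.68, 6.87 and 6.91 after control ASO, a difference of -0.96 ± 0.14 (51.4% of control). Its other probe set read 5.43, 5.51, 5.59 and 5.51 after ACAT2 ASO, against 5.58, 5.64, 5.69 and 5.53 after control ASO. These ranges overlap, and the difference was -0.10, so the 2 probe sets of Fbxl17 disagreed in size.

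Babam2 is a scaffold of the BRISC and BRCA1-A deubiquitinating complexes. The leading probe set read 6.32, 6.13, 6.07 and 6.13 after ACAT2 ASO, against 7.21, 6.98, 6.98 and 6.89 after control ASO, a difference of -0.85 ± 0.08 (55.4% of control). The second probe set read 5.76, 5.33, 5.67 and 5.81 after ACAT2 ASO, against 6.42, 5.88, 6.17 and 5.99 after control ASO. The second pair of groups also stayed apart, but by a narrow margin, with a difference of -0.47. The faintest one differed by -0.01 and its groups overlapped.

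Snd1 is a nuclease with a Tudor domain that binds RNA and is found in the RNA-induced silencing complex. It read 6.94, 6.61, 6.47 and 6.49 after ACAT2 ASO, against 7.46, 7.71, 7.66 and 7.52 after control ASO. ACAT2 ASO 1 was the highest of its group and still below every control sample. The difference was -0.96 ± 0.08, or 51.5% of the control level.

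Atrnl1, an attractin-like membrane protein, read 6.74, 6.80, 6.31 and 6.39 after ACAT2 ASO, against 7.32, 7.42, 7.58 and 7.53 after control ASO. The difference was -0.90 ± 0.11 (53.4% of control). Its fainter probe set differed by -0.16 at values of 3.21 to 3.54. Neither probe set's groups overlapped.

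Ptprg, a receptor-type tyrosine phosphatase, has 3 probe sets whose groups were all separate. The leading one read 5.94, 6.08, 5.90 and 5.88 after ACAT2 ASO, against 6.68, 6.90, 6.85 and 6.58 after control ASO, a difference of -0.80 ± 0.10 (57.4% of control). The second one read 4.59, 4.60, 4.64 and 4.72 after ACAT2 ASO, against 5.33, 4.93, 5.20 and 4.84 after control ASO, a difference of -0.44. The faintest of the 3 differed by -0.27, so the size of the difference was smaller the fainter the probe set.

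Dtnb, the beta dystrobrevin of the dystrophin-associated complex, had the smallest difference of the leading probe sets and the shortest span. It read 5.33, 5.21, 5.34 and 5.35 after ACAT2 ASO, against 5.71, 5.73, 5.78 and 5.62 after control ASO. The spread within each group was narrow, with SDs of 0.06 and 0.07, and the groups were apart. The difference was -0.40 ± 0.07, or 75.5% of the control level.

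**Figure D1:**
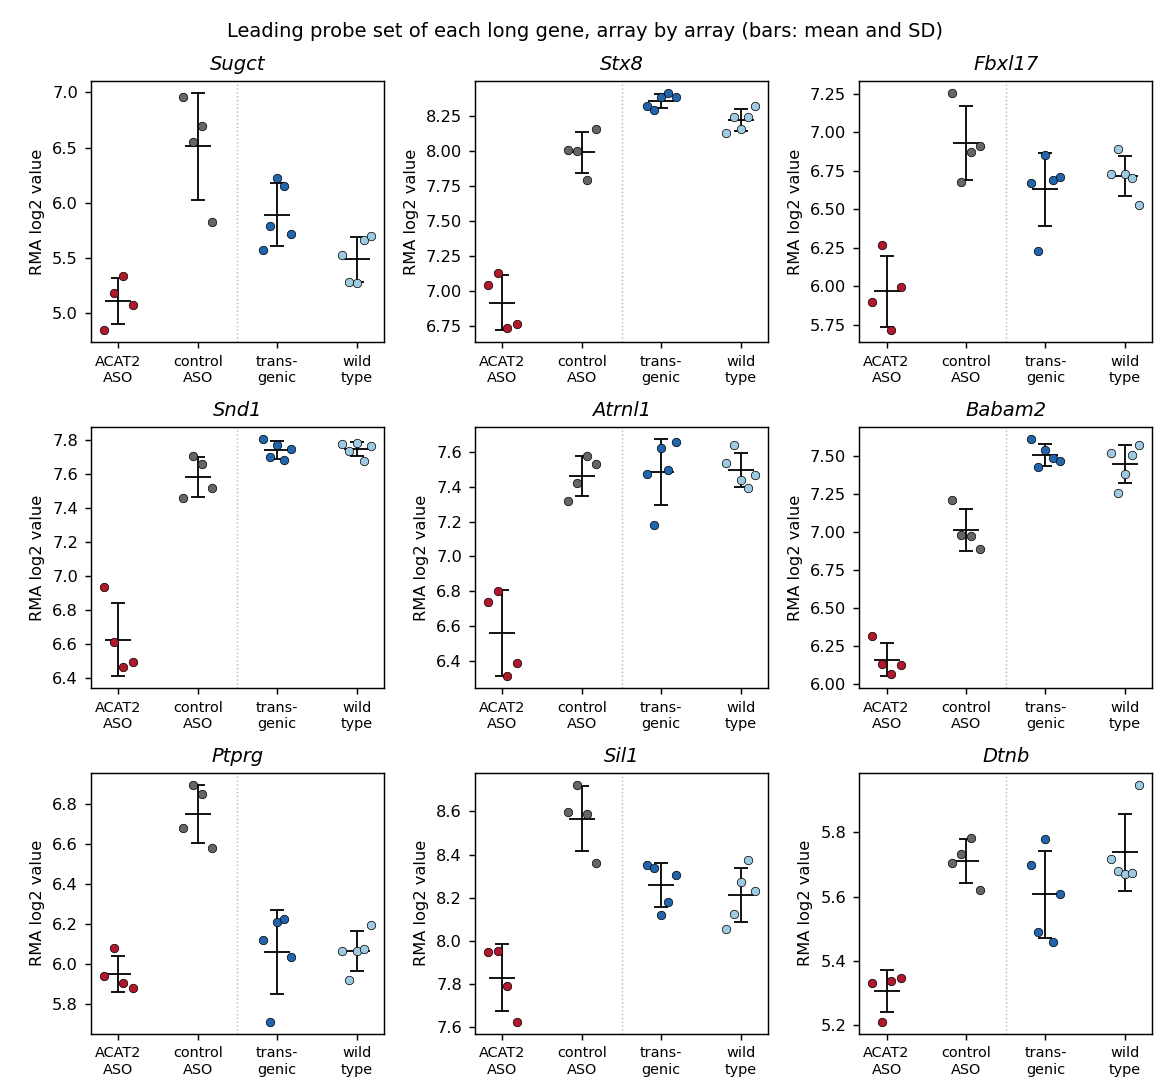
RMA log2 value of the leading probe set of each of the 9 genes (vertical axis, a separate scale per gene) for every array, by group (horizontal axis), with bars for the mean and SD of 4 ASO-model or 5 transgenic-model arrays. For all 9 genes the 4 ACAT2 ASO points lie below the 4 control ASO points, and the transgenic and wild type points overlap.

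The differences of probe sets that were not leading were smaller, with a median of -0.22 over the 8 against -0.90 over the 9 leading ones, and 1 of the 8 passed the adjusted threshold. Of the 17 probe sets, 14 lay above the lowest 40% of all probe sets by mean. The 3 fainter ones, of Stx8, Atrnl1 and Ptprg, differed by -0.14, -0.16 and -0.27. The positions of the probe sets within the transcripts were not used here.

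**Figure D2:**
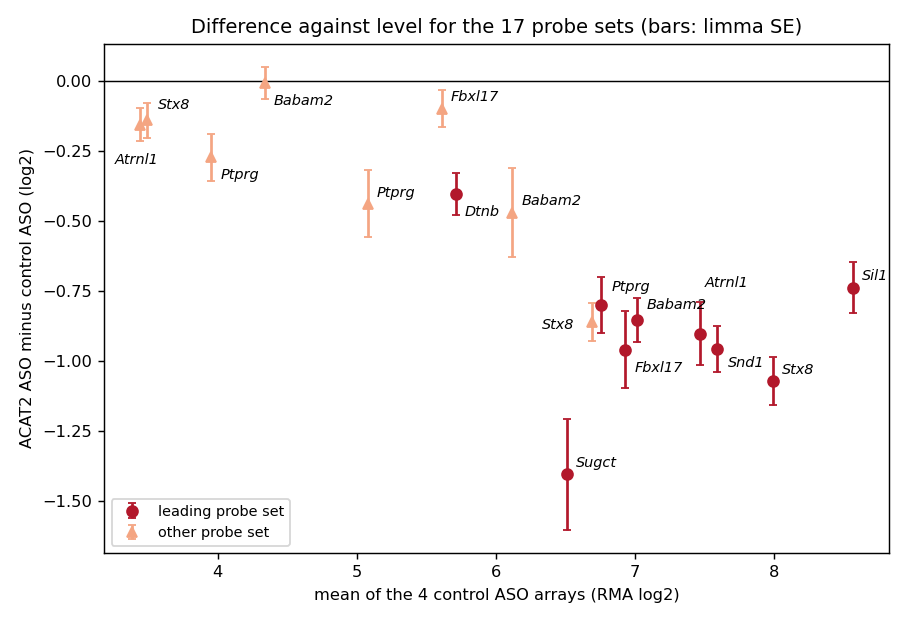
Difference between ACAT2 ASO and control ASO means (vertical axis, log2, with limma's SE) against the mean of the 4 control ASO arrays (horizontal axis, RMA log2) for the 17 probe sets. Probe sets with a control mean under 6.5 differed by 0.47 or less in size, and the leading probe sets other than Dtnb all lie lower. Sugct lies just above that level, with a control mean of 6.51, and has the widest difference, -1.40.

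Array by array, the difference was present in each ACAT2 ASO sample. Taken as the median of the 9 leading probe sets relative to the control ASO mean, the samples stood at -0.73, -0.67, -1.12 and -0.94 after ACAT2 ASO, against 0.02, 0.02, 0.07 and -0.09 after control ASO. ACAT2 ASO 3 and 4 had the lower medians. The genes did not keep one order, since Sugct was lowest in ACAT2 ASO 1 while Stx8, Snd1 and Atrnl1 were lower in ACAT2 ASO 3 and 4. Deviations from the group means, over the 8 arrays of the ASO model, correlated between pairs of the 9 genes with a median Pearson r of 0.25 over 36 pairs. The pairs ranged between -0.83 (Stx8 with Dtnb) and 0.80 (Ptprg with Sil1), and these points share arrays and normalization. Over the 10 arrays of the transgenic model the median was 0.24, the lowest -0.55 (Atrnl1 with Sil1) and the highest 0.87 (Fbxl17 with Atrnl1).

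**Figure D3:**
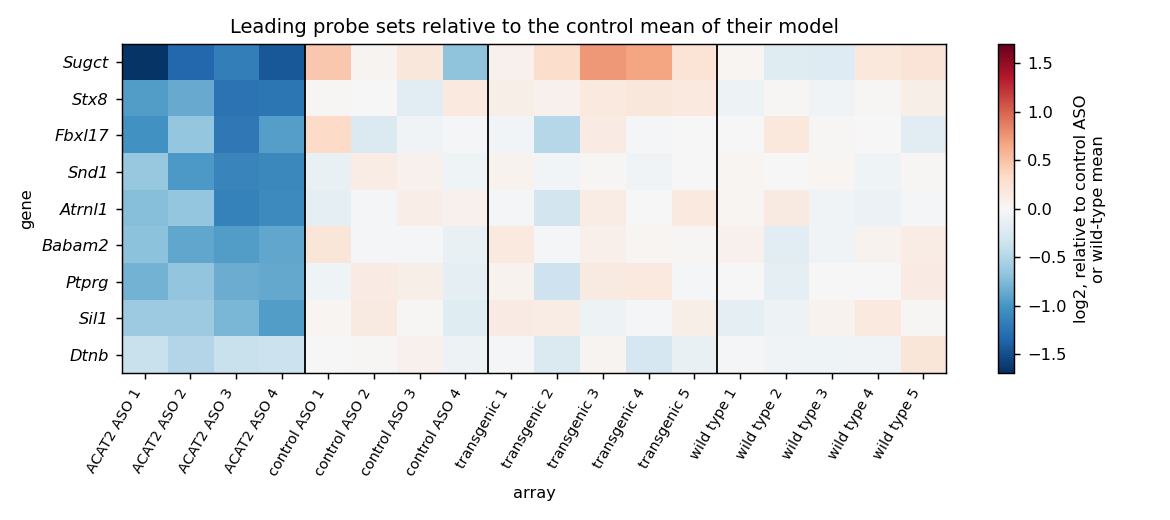
Leading probe set of each gene (rows) on each of the 18 arrays (columns), as the log2 value minus the control ASO mean or the wild type mean of its model (colour). The 4 ACAT2 ASO columns are blue in all 9 rows, and outside them the strongest colours are in the Sugct row.

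The transgenic comparison, which did not enter the choice of the genes, gave no call among the 17 probe sets. Under limma's fit 0 of 17 passed an adjusted p under 0.05, against 0.173% of all probe sets in either direction and 0.0644% in the direction of lower, and 1 of 17 had an unadjusted p under 0.05, against 10.4% of all. Of the 17, 6 were higher and 11 lower in transgenic than in wild type liver, with a median of -0.0058, and the groups overlapped for all 17, against 0.799% of all probe sets that were apart and lower and 1.04% that were apart and higher. Adjusted p-values lay between 0.440 and 0.995.

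Sugct was the 1 with an unadjusted p under 0.05, and its direction was the opposite of that after ACAT2 ASO. It read 5.57, 5.79, 6.23, 6.15 and 5.71 in transgenic livers, against 5.52, 5.28, 5.27, 5.66 and 5.70 in wild type livers. The highest wild type samples lay within the transgenic range. The difference was 0.40 ± 0.18 with limma's adjusted p = 0.440, and its 95% interval ran from 0.03 to 0.78.

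Stx8 read 8.32, 8.29, 8.38, 8.41 and 8.38 in transgenic livers, against 8.13, 8.24, 8.15, 8.24 and 8.32 in wild type livers. Wild type 5 was the only wild type sample within the transgenic range. The difference was 0.14 ± 0.08 (limma's adjusted p = 0.553, 95% interval -0.02 to 0.30). Dtnb read 5.70, 5.49, 5.78, 5.46 and 5.61 in transgenic livers, against 5.72, 5.68, 5.67, 5.67 and 5.95 in wild type livers. Its difference was -0.13 ± 0.07 (limma's adjusted p = 0.519, 95% interval -0.27 to 0.01).

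The other 6 leading probe sets had differences close to 0. They ranged between -0.09 for Fbxl17 (95% interval -0.35 to 0.17) and 0.06 for Babam2 (95% interval -0.09 to 0.21). Snd1 had the narrowest spread, 7.74 ± 0.05 in transgenic and 7.75 ± 0.04 in wild type livers (SD, n = 5 each), with an interval from -0.16 to 0.15. The intervals of Atrnl1 (-0.22 to 0.20), Ptprg (-0.19 to 0.18) and Sil1 (-0.12 to 0.22) include 0 as well. The difference between the comparisons was not tested, because 1 of them chose the genes.

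**Figure D4:**
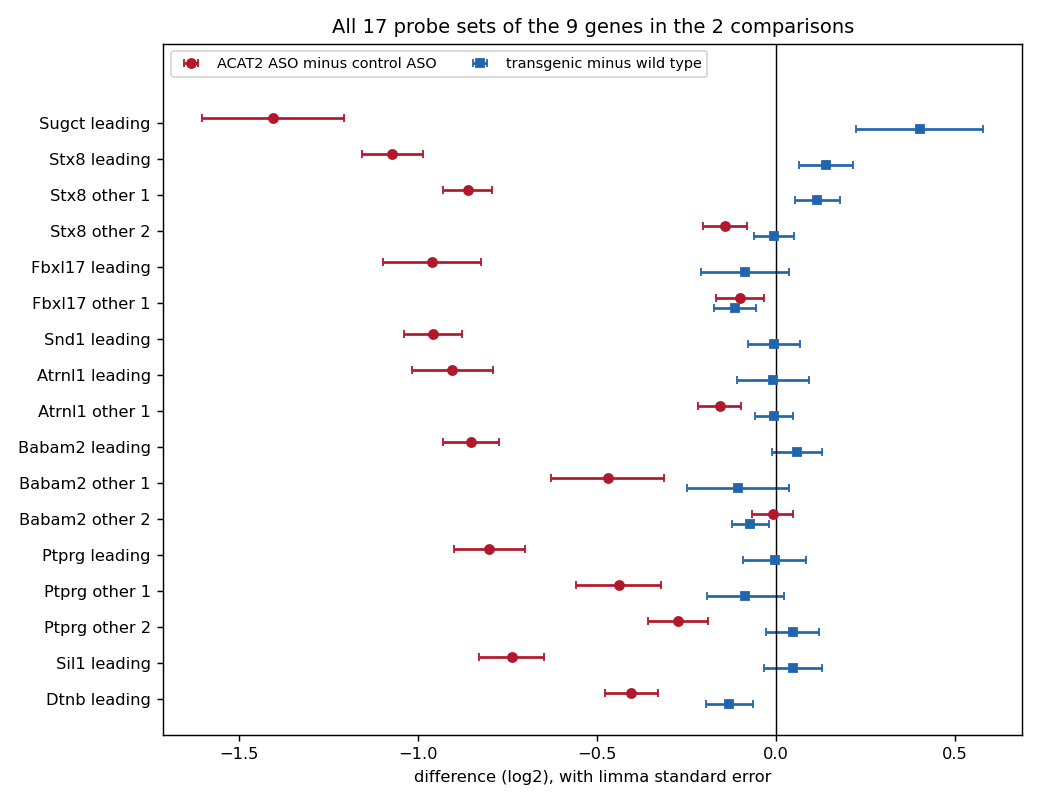
Log2 difference with limma's SE (horizontal axis) for each of the 17 probe sets (rows), for ACAT2 ASO minus control ASO (circles) and transgenic minus wild type (squares). All 17 circles are left of 0, with the leading ones between -1.40 and -0.40, while the squares lie on both sides of 0 between Dtnb at -0.13 and Sugct at 0.40.

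The span of the genes was set against the calls over all genes, with 1 leading probe set per gene. After ACAT2 ASO 71 of 17097 genes passed as lower, or 0.415%, and 31 as higher, or 0.181%. Of the 850 genes over 200 kb 10 passed as lower, or 1.18%, and these 10 are the 9 genes and Exoc4. Of the 16084 genes up to 200 kb 61 passed as lower, or 0.379%. The share of lower calls was 0.411% under 10 kb, 0.292% from 10 to 50 kb, 0.509% from 50 to 100 kb, 0.549% from 100 to 200 kb, 0.91% from 200 to 500 kb and 2.09% (4 of 191) over 500 kb. Without the 9 genes the share over 200 kb was 0.119%, or 1 of 841, against 0.379% up to 200 kb. This takes called genes out of the longer class alone, which lowers its share by construction, so the order of these shares tells nothing. The shares also moved with the setting. With centring the share without the 9 was 0.951% over 200 kb, against 0.609% up to 200 kb. With array weights it was 2.62%, against 1.71%. Without ACAT2 ASO 2 the shares were 0.951% and 0.846%, and the fit on the ASO arrays alone gave 0.119% and 0.0497%. The shares that include the 9 restate the choice of the genes, those without the 9 are lowered by it, and none carries a test.

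Most long genes were not called. After ACAT2 ASO the median difference of the 850 genes over 200 kb, whatever their level, was 0.01. Of these, 390 lay above the lowest 40% by level, and their median was -0.00035. Over 500 kb the median was 0.0069 for all 191 genes and -0.05 for the 67 above that level. Each of these medians includes genes that were chosen as lower. Spearman's rho between span and difference was taken over 10212 genes above the lowest 40% by level. It was 0.09 after ACAT2 ASO and -0.03 in the transgenic comparison, given as a description of genes that share arrays. In the transgenic comparison 0 of the 850 passed as lower, against 0.0585% of all genes. As higher 1 of the 850 passed, against 28 of the 16084 genes up to 200 kb. In either direction 0.228% of all genes passed. The gene over 200 kb that passed was Unc13b, a vesicle priming protein that spans 218.68 kb. It read 5.17, 5.22, 5.15, 5.32 and 5.22 in transgenic livers, against 4.52, 4.72, 4.86, 4.40 and 4.65 in wild type livers, a rise of 0.59 (limma's adjusted p = 0.00731). With the replicate number as a block its adjusted p was 0.0758.

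Exoc4 belongs to the exocyst, which docks vesicles at the cell membrane. It spans 724.89 kb and had a wider difference than any of the 9. It read 6.06, 5.80, 5.38 and 5.09 after ACAT2 ASO, against 7.30, 7.77, 7.21 and 7.41 after control ASO. The groups were far apart, with a difference of -1.84. In the transgenic comparison its difference was -0.04 (limma's adjusted p = 0.966).

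In the other direction 2 of the 850 genes over 200 kb passed as higher after ACAT2 ASO, or 0.235%, close to the 0.181% of all genes. Adgrv1, an adhesion receptor that spans 538.32 kb, read 6.61, 6.56, 6.83 and 6.89 after ACAT2 ASO, against 6.05, 5.44, 5.82 and 5.61 after control ASO, a rise of 1.00 (limma's adjusted p = 0.00809). The call is lost on the ASO arrays alone (0.0511) and with the replicate block (0.0517). Ncoa2, a coactivator of nuclear receptors that spans 235.12 kb, rose by 0.33 (limma's adjusted p = 0.0267), a call that ends in several of the alternative fits.

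The limits of the choice had genes close by on the other side. Just inside the span limit stood Dtnb (-0.40) and Sil1 (-0.74), and just outside it, among genes that passed as lower, stood Nipbl (175.49 kb, difference -0.41, a call that ends without any single ASO-model array), the loader of cohesin, and Galk2 (125.19 kb, -0.35), a sugar kinase. Just outside the adjusted threshold, among genes over 200 kb, stood Erc2 (856.26 kb, -0.39), a scaffold of presynaptic active zones. Next came Pcca (405.58 kb, -0.48), a subunit of mitochondrial propionyl-CoA carboxylase, and Lrba (559.24 kb, -0.44), a protein of vesicle traffic. Pcca read 8.55, 9.03, 8.64 and 8.74 after ACAT2 ASO, against 9.52, 9.15, 9.0 and 9.19 after control ASO, so that ACAT2 ASO 2 lay within the control range.

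**Figure D5:**
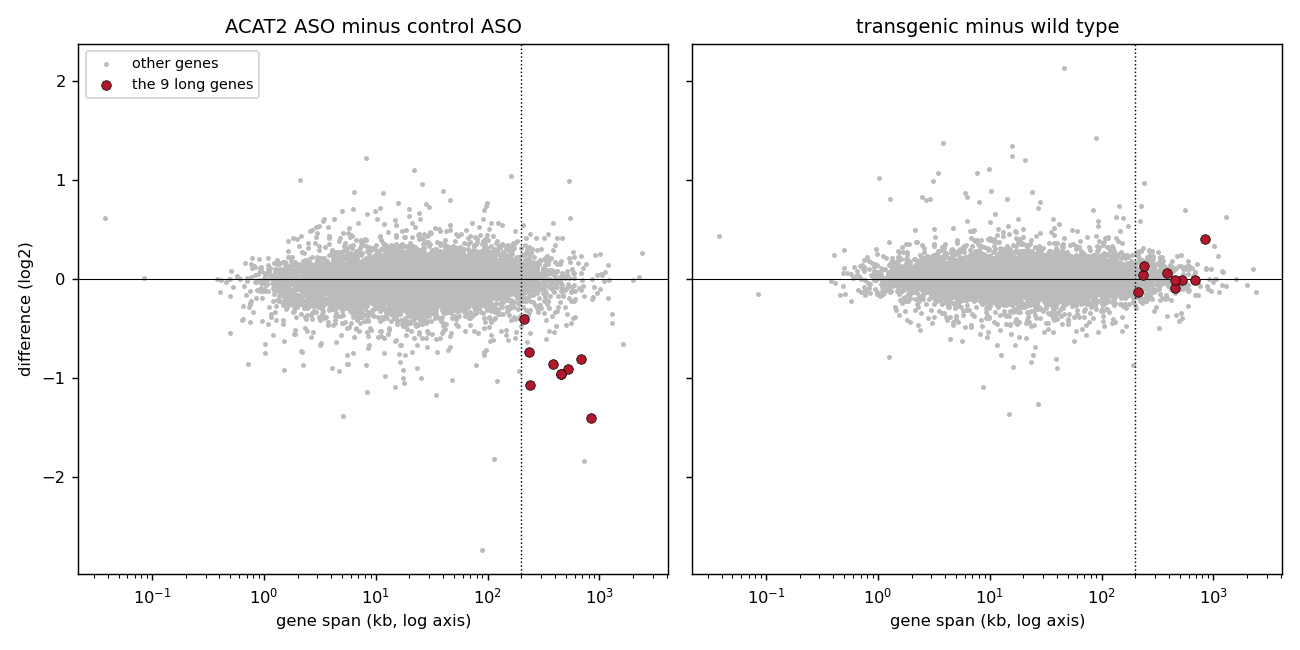
Log2 difference (vertical axis) against gene span (horizontal axis, kb, log scale) for the leading probe set of each gene above the lowest 40% by level, after ACAT2 ASO (left) and in the transgenic comparison (right), with the 9 genes in red and a dotted line at 200 kb. The red points lie between -1.40 and -0.40 on the left and between -0.13 and 0.40 on the right, and most other genes over 200 kb are near 0 in both.

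Genes of proteins that work beside the 9 were examined next. Of 62 partner genes in 9 lists 59 were measured. After ACAT2 ASO 1 passed as lower and 0 as higher in limma's fit, against 0.597% of all genes in either direction, and 6 of 59 had an unadjusted p under 0.05, against 13.3% of all genes. In the transgenic comparison 0 passed, against 0.228% of all genes, and 5 of 59 had an unadjusted p under 0.05, against 10.9% of all genes. The median difference of the partners was 0.0079 after ACAT2 ASO and -0.0047 in the transgenic comparison.

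The partner that fell was Aadat, an aminotransferase of the lysine route that Sugct serves. It read 8.74, 9.19, 9.0 and 9.15 after ACAT2 ASO, against 9.62, 9.46, 9.52 and 9.58 after control ASO, a difference of -0.52 ± 0.09 (limma's adjusted p = 0.0119). The groups did not overlap. The call is lost in the fit on the ASO arrays alone (adjusted p = 0.0996) and with the replicate number as a block (0.130). Of the 7 measured genes of lysine and glutarate breakdown 6 had a lower mean after ACAT2 ASO, with a median of -0.10. Gcdh, the glutaryl-CoA dehydrogenase, differed by -0.17 (limma's adjusted p = 0.466) and Dhtkd1, which acts on 2-oxoadipate, by -0.23, and neither passed. In the transgenic comparison Aadat differed by 0.04 (limma's adjusted p = 0.928).

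Among the endosomal SNARE partners of Stx8 0 of 6 passed in either comparison, and their median after ACAT2 ASO was -0.03. Vamp7, a SNARE of late endosomes, differed by 0.18 (limma's adjusted p = 0.316) and Vamp8, its relative in the same SNARE complex as Stx8, by -0.08 (0.452). For Sil1, 0 of 8 chaperones of the endoplasmic reticulum passed. Dnajc3, a cochaperone of Hspa5, differed by -0.17 after ACAT2 ASO and 0.21 in the transgenic comparison (limma's adjusted p = 0.454 and 0.356).

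In the ubiquitin lists, 0 of 5 core components of the SCF ligase and 0 of 8 BRISC and BRCA1-A partners of Babam2 passed in either comparison. In the transgenic comparison Skp1, the adaptor that holds F-box proteins, differed by 0.15 (limma's adjusted p = 0.240) and Rbx1, the RING subunit, by 0.13 (0.322). Babam1, which binds Babam2 in both complexes, differed by -0.05 after ACAT2 ASO.

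Among the membrane lists, 0 of 9 dystrophin complex partners of Dtnb passed. Sntb1 differed by -0.16 in the transgenic comparison (limma's adjusted p = 0.185). Dmd, which encodes dystrophin and spans 2390.4 kb, differed by 0.27 after ACAT2 ASO (limma's adjusted p = 0.143). Dtna, the alpha dystrobrevin, differed by 0.20 (0.129). Of 10 receptor-type phosphatases 0 passed. Ptprf differed by -0.27 (limma's adjusted p = 0.174) and Ptprs by -0.19 (0.410). Atrn, the relative of Atrnl1, differed by 0.08, and Stat6, a transcription factor that Snd1 binds, by -0.15, with 0 of 2 and 0 of 4 genes passing in their lists. Mtdh, in the list of Snd1, differed by 0.11 in the transgenic comparison (limma's adjusted p = 0.562).

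The nearest measured protein-coding gene on each side of the 9 was also examined, which gave 18 neighbours. In limma's fit 0 of 18 passed in either comparison, against 0.597% of all genes after ACAT2 ASO and 0.228% in the transgenic comparison. With so few genes, no call is what these shares would give. An unadjusted p under 0.05 was reached by 4 of 18 after ACAT2 ASO, against 13.3% of all genes, and by 2 of 18 in the transgenic comparison, against 10.9%. After ACAT2 ASO 9 of 18 were below 0 and the median was -0.00085. The lowest was Fhit, a hydrolase gene of 1612 kb beside Ptprg. It read 4.25, 4.47, 4.16 and 4.10 after ACAT2 ASO, against 5.48, 4.85, 4.56 and 4.69 after control ASO, a difference of -0.65 (limma's adjusted p = 0.123). The Fhit groups did not overlap. The highest was Gfra1, a coreceptor for a neurotrophic factor beside Atrnl1, at 0.42 (limma's adjusted p = 0.234). Lrrc4, which overlaps Snd1, differed by -0.10.

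The genes whose pattern was most like the mean of the 9 over the 8 ASO-model arrays, among 9901 genes above the lowest 40% by level, were Rgs7bp, Ppfibp1, Tpd52l1, Golt1a and Eri3. Their Pearson r lay between 0.972 and 0.978, over points that fall into 2 separate groups. Their differences were -0.14, -0.56, -1.82, -0.49 and -0.31 in that order. None passed in the transgenic comparison, with limma's adjusted p between 0.123 and 0.98. Their spans were 109.03, 145.42, 113.62, 13.204 and 124.06 kb in the same order. All were under the 200 kb limit, but all except Golt1a were far above the median span of all measured genes, 20.242 kb.

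Markers of liver cell types gave 0 calls among 47 measured of 54 listed in either comparison, in limma's fit, against 0.597% of all genes after ACAT2 ASO and 0.228% in the transgenic comparison. An unadjusted p under 0.05 was reached by 7 of 47 after ACAT2 ASO, against 13.3% of all genes, and by 3 of 47 in the transgenic comparison, against 10.9%. The hepatocyte markers were high, with a mean of 12.34 to 12.53 after ACAT2 ASO and 12.45 to 12.49 after control ASO. All 7 Kupffer cell markers had higher means after ACAT2 ASO (differences 0.17 to 0.57), and the list's mean ranged between 6.79 and 8.73 after ACAT2 ASO, against 6.82 and 8.29 after control ASO. The cholangiocyte markers ranged between 4.32 and 4.40 after ACAT2 ASO, against 4.41 and 5.19 after control ASO, and 1 of its 4 measured genes lay above the lowest 40% by level. Krt7, Sox9 and Epcam differed by -0.17, -0.07 and 0.02, so the shift of the list lay mostly in Krt19. Krt19, a cholangiocyte keratin, read 3.99, 4.12, 4.20 and 4.19 after ACAT2 ASO, against 5.50, 6.85, 4.33 and 4.30 after control ASO. The part of these markers in the results was not tested. In bulk liver RNA, fewer cells of a type and less RNA per cell cannot be told apart.

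The 3′ minus 5′ difference of the Actb control probe sets, a sign of RNA integrity, was 0.92 to 1.18 after ACAT2 ASO and 0.99 to 1.09 after control ASO. It was 0.89 to 1.26 in transgenic and 0.83 to 1.02 in wild type livers. The array medians were 4.38 to 4.40 in the ASO model and 4.61 to 4.65 in the transgenic model, so levels were compared only within a model. The arrays least like their own group were wild type 2, control ASO 4 and ACAT2 ASO 1, with median correlations of 0.981, 0.985 and 0.989. Without these 3 arrays the median difference of the 9 leading probe sets after ACAT2 ASO was -0.94, against -0.90 with them.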

How the data were processed

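Liver RNA was profiled on 18 Affymetrix MG-430 PM arrays, from RNA extracted with Trizol and labelled by the 3′-IVT procedure per the labels' protocols. The authors summarised each probe set with RMA and deposited log2 values, per the submitters' processing notes. That they are log2 values follows from their range. The software version is not given in the sources used here. Groups came from the sample titles.

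Of 45141 probe sets 104 controls were left out, and low values were kept. The platform annotation named 1 gene for 28898 probe sets, more than 1 for 551 and no gene for 15588. By Entrez number 28689 matched the RefSeq gene table (GRCm38.p6), and 16934 of 17097 genes had a span. The 9 genes and the lists of partners and markers were chosen with earlier results of these data known.

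Differences were fitted with limma 3.58.1 (R 4.3.3) by lmFit and eBayes over all 18 arrays, with a mean per group, two-sided, and Benjamini-Hochberg adjustment over all 45037 probe sets, or over 17097 genes with 1 leading probe set each. Values of the 9 genes' own probe sets in the transgenic comparison come from the fit over probe sets, and those of all other genes from the fit over genes. The procedure was tested on simulated data. The number of arrays limits the precision.

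Named were the 9 genes with every probe set, called partners and otherwise up to 2 per list with the smallest p, called neighbours, called genes over 200 kb, the 5 genes most like the mean of the 9, and those beside the limits. Dmd, Fhit, Gfra1, Lrrc4, Krt7, Krt19, Sox9, Epcam and Dhtkd1 were chosen after their values were seen. Alternatives were a filter on low levels, centring, quantile normalization within each model, averaged probe sets, each comparison's own arrays and array weights. Further ones were a trended and robust variance, the replicate number as a block, other span limits and leaving out each array. Figures were drawn with matplotlib 3.10.9.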

Additional observations from a re-analysis of the deposited data

Results flagged for a closer look

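In 7 of 68 groups of array values checked, over the 17 probe sets and 4 groups, 1 array stood apart from the others of its group by Dixon's criterion, and chance alone gives about 1 in 20 such groups. In the ASO model, ACAT2 ASO 2 read 5.21 for Dtnb, while the other ACAT2 ASO arrays read 5.33 to 5.35, so the array that stood apart was the lowest of the group that was lower. Control ASO 3 read 3.54 for the faint second probe set of Atrnl1 (others 3.40 to 3.42), and control ASO 2 read 3.67 for the faint last probe set of Stx8 (others 3.42 to 3.44).

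In the transgenic model, transgenic 4 read 6.87 for the second probe set of Stx8 (others 6.69 to 6.74). Wild type 5 read 5.38 for the second probe set of Fbxl17 (others 5.18 to 5.23) and 5.95 for Dtnb (others 5.67 to 5.72). Wild type 2 read 4.30 for the last probe set of Babam2 (others 4.34 to 4.36).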

How the results depend on the processing

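For the 9 leading probe sets the ASO difference kept its sign in all 126 alternative values, between -1.63 and -0.37. Their groups did not overlap, so leaving out arrays could not turn a sign, and the kept sign tells nothing of stability. The genes were chosen for passing as lower on these arrays, so the number of the 9 that passed tells nothing of their stability. It was 7 on the ASO arrays alone (Sugct and Fbxl17 lost), 6 with the replicate number as a block (Fbxl17, Atrnl1 and Dtnb lost) and 8, with Dtnb lost, without ACAT2 ASO 3 or without control ASO 1, 2 or 3. Their median difference was -0.53 with a gene's probe sets averaged and between -0.95 and -0.82 without single arrays. In the transgenic comparison none of 171 alternative values passed (smallest adjusted p 0.328) and 15 turned sign, all close to 0: with centring Snd1 0.0033, Atrnl1 0.00020 and Ptprg 0.0054, without the 3 outlying arrays (an alternative chosen after seeing the data) Atrnl1 0.028, and without single arrays Fbxl17 -0.14 to 0.0145, Snd1 -0.0234 to 0.0092, Atrnl1 -0.0522 to 0.0681 and Ptprg -0.0452 to 0.0838. Calls among all probe sets were 78 in the transgenic comparison, against 17 on its own arrays, 2 with the replicate block, 39 with 1 probe set per gene and 37 to 124 without single arrays (37 and 43 without wild type 3 and 4, 45 and 47 without transgenic 1 and 4, 124 without wild type 5). They were 219 after ACAT2 ASO, against 20 on its own arrays, 809 with array weights, 61 with the replicate block, 102 with 1 probe set per gene, 63 without the 3 arrays and 62 to 302 without single arrays (62 to 127 without ACAT2 ASO 1, 3 or 4 or control ASO 1, 2 or 4). Genes over 200 kb that passed as lower numbered 10, against 17 with centring, 31 with array weights, 9 to 17 without single arrays (17 without ACAT2 ASO 2), and 17 or 4 with a limit of 100 or 500 kb. Partners that passed numbered 1, against 0 on own arrays and with the replicate block, 3 with array weights and 1 to 2 without single arrays (2 without ACAT2 ASO 2). Of the neighbours 1, Fhit, passed with array weights (adjusted p 0.0419). The calls of Ncoa2 (highest adjusted p 0.0969) and Nipbl (0.0750) ended without single arrays. Between samples with the same replicate number the deviations from the group means had correlations between -0.45 and 0.45. The titles do not say whether the numbers pair samples, and these correlations over few arrays cannot settle it. The cause of these moves was not tested.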
